A study of Mus musculus with 2 samples.

Results

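The Hippo pathway effectors and target genes described here are the co-activators Yap1 and Wwtr1 (the gene of TAZ), the DNA-binding factors Tead1, Tead2 and Tead3, and the target genes Ctgf (newer name Ccn2), Cyr61 (newer name Ccn1), Ankrd1, Amotl2 and Lats2. The members were fixed by name, and every non-control probe whose RefSeq accession belongs to one of these 10 genes was taken, which gave 15 of 56604 probes and 10 of 22911 genes with a named probe. Gene expression had been measured in whole pancreas of male C57BL/6 mice aged 5 weeks, on 1 Agilent 1-colour array for a Nrdc-cKO pancreas and 1 array for a WT pancreas. The Nrdc-cKO genotype is Ptf1a-Cre; Nrdcflox/flox, in which Cre acts in cells that express, or descend from cells that expressed, the pancreatic transcription factor Ptf1a, so that stromal, vascular and immune cells are not targeted. Nrdc encodes nardilysin, a metalloendopeptidase, and the series asked what it does in the exocrine pancreas. Whether the WT mouse carried the Cre or a floxed allele is not given in the labels, nor is pooling of animals.

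In the Hippo pathway a kinase cascade, in which the kinases encoded by Stk3 and Stk4 activate those encoded by Lats1 and Lats2, phosphorylates the co-activators YAP and TAZ and keeps them out of the nucleus. When the cascade is quiet, YAP and TAZ enter the nucleus, bind TEAD factors and switch on genes such as Ctgf and Cyr61. Most of this control acts on the proteins, which an RNA measurement does not see. In the pancreas YAP is known as a protein of progenitors, duct cells and stromal cells, and it is low in mature acinar and endocrine cells.

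With 1 array per group nothing could be said of the spread among mice, so no test was made and each difference below describes these 2 arrays. Values are log2 processed signal minus the 75th percentile of all non-control probes of the array, called the level, and the threshold was 2-fold. Before this scaling the 75th percentile was 227 intensity units on the Nrdc-cKO array and 70.8 on the WT array, a 3.21-fold ratio. A probe brighter by just this ratio shows no difference after scaling, and the 2-fold threshold applies beyond it. The probe for Nrdc had a level of -1.28 on the Nrdc-cKO array and 1.93 on the WT array, a log2 difference of -3.21, and it is not known from the labels whether it lies in the deleted part. Of 12 markers of acinar cells, the main cells of the pancreas, 12 were measured on both arrays.

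Of the 15 member probes, 11 were well above background on both arrays, 2 were so only on the Nrdc-cKO array and 2 on neither, and each probe had 1 spot. Through these probes 9 of the 10 members were measured on both arrays. Wwtr1, Ctgf, Cyr61 and Lats2 were higher in the Nrdc-cKO pancreas by 2-fold or more, Tead2 was lower by 2-fold or more, and Yap1, Tead1, Tead3 and Amotl2 were within 2-fold. Against these 4 higher and 1 lower of 9, 12.8% of all 13001 genes with a value passed 2-fold upward and 17.3% passed it downward. The median log2 difference of the members was 0.43, and that of all genes was -0.18. With spike-in scaling 8 of the 9 members and 79.5% of all genes passed 2-fold upward, the member median was 2.31 and the median of all genes was 1.703. With so few members, chosen by name, nothing particular to them can be read from these counts.

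**Figure D1:**
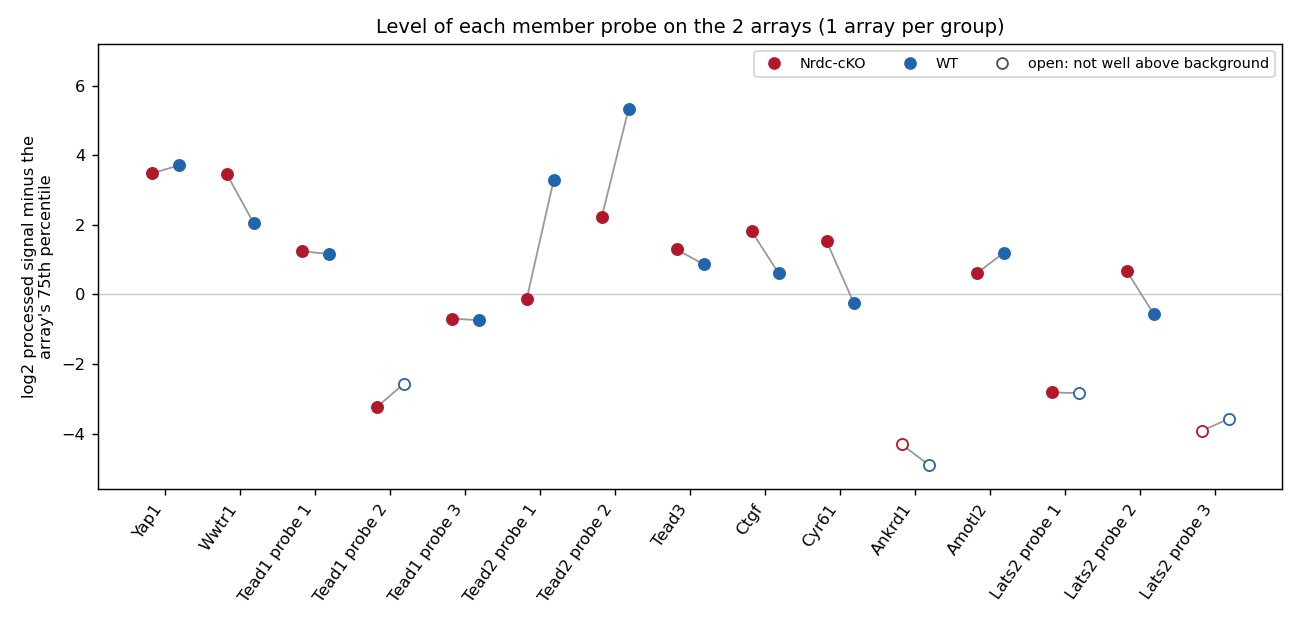
Level of each member probe, log2 processed signal minus the array's 75th percentile, with the Nrdc-cKO array in red to the left and the WT array in blue to the right of each pair, 1 array per group. Both Tead2 probes sit far lower on the Nrdc-cKO array, the probes of Wwtr1, Ctgf and Cyr61 and 1 of the 3 Lats2 probes sit higher, and open symbols mark probes not well above background.

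The promoters of the members were searched for the motif that TEAD factors bind, and 5 windows are shown, those of members past 2-fold that the table holds and that of Ankrd1, a standard readout of YAP whose probe stayed in the background. Where a gene has several windows the first listed is shown. The other Wwtr1 window overlaps the one shown and holds the same site, and the other Lats2 window (chr14:57734369-57734668, minus strand) holds no match. The windows, from RefSeq on GRCm38.p6, run from 250 bases before to 50 bases after an annotated start and are written 5′ to 3′ on the gene's strand, with matches to GGAATG or its reverse complement CATTCC in capitals. They are Wwtr1 at chr3:57575861-57576160 (minus strand), Cyr61 at chr3:145649936-145650235 (minus strand), Lats2 at chr14:57746074-57746373 (minus strand), Ankrd1 at chr19:36119795-36120094 (minus strand) and Tead2 at chr7:45215542-45215841 (plus strand).
Wwtr1: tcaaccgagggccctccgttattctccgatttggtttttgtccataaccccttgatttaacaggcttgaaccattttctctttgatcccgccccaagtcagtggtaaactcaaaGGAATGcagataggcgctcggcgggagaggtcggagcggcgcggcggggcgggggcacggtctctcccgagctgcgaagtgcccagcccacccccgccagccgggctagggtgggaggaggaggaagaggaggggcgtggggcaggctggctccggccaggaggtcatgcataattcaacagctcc
Cyr61: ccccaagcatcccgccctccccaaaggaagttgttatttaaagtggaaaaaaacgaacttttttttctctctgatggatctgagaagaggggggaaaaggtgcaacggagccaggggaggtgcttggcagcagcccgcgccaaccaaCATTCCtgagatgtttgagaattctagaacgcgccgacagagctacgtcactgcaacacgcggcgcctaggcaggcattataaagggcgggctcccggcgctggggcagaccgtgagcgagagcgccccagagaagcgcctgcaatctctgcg
Lats2: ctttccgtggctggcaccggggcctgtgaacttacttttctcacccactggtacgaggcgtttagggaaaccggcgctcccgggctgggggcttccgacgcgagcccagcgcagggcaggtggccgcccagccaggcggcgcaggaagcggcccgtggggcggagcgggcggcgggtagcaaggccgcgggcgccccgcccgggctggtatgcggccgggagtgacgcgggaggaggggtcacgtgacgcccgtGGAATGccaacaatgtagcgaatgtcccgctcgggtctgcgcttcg
Ankrd1: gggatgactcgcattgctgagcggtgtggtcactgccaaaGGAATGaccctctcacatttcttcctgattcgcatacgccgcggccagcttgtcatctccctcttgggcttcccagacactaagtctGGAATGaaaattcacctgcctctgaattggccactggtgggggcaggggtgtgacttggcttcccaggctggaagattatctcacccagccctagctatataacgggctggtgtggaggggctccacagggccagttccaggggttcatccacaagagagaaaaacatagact
Tead2: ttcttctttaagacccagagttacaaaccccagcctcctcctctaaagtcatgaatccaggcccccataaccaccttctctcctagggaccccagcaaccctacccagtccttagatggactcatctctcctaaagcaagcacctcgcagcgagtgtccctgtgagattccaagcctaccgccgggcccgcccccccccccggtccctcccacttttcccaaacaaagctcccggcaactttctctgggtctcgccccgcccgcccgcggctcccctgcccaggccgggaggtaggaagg
The Cyr61 match begins 103 bases before the start, the Wwtr1 match 136 bases before it, and the Ankrd1 matches 210 and 123 bases before it. The Lats2 match begins at base 5 of the transcript. The Tead2 window holds no match, which says only that these letters are not in this window.

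No window was available for Ctgf and Tead1, so their promoters were not searched. Of the 8 members with a window in the table, 7 had at least 1 TEAD motif match in at least 1 of their windows, Tead2 being the exception, while 16.6% of the 27025 genes with a window did. Counted by window, 9 of 12 member windows held a match, against 14.7% of all 32851 windows, and the pair of Wwtr1 windows overlap and share 1 site. Yap1, Tead3 and Amotl2, which were within 2-fold, held matches as well as Wwtr1, Cyr61 and Lats2, which were higher. A match is therefore present both in members that differed and in members that did not pass the threshold. The AP-1 motif TGANTCA, searched in the same windows because AP-1 is known to act beside TEAD factors, was in 0 of the 8 members and in 8.97% of genes. The CArG box, the motif of serum response factor, was in 0 of the 8 members and in 1.81% of genes.

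**Figure D2:**
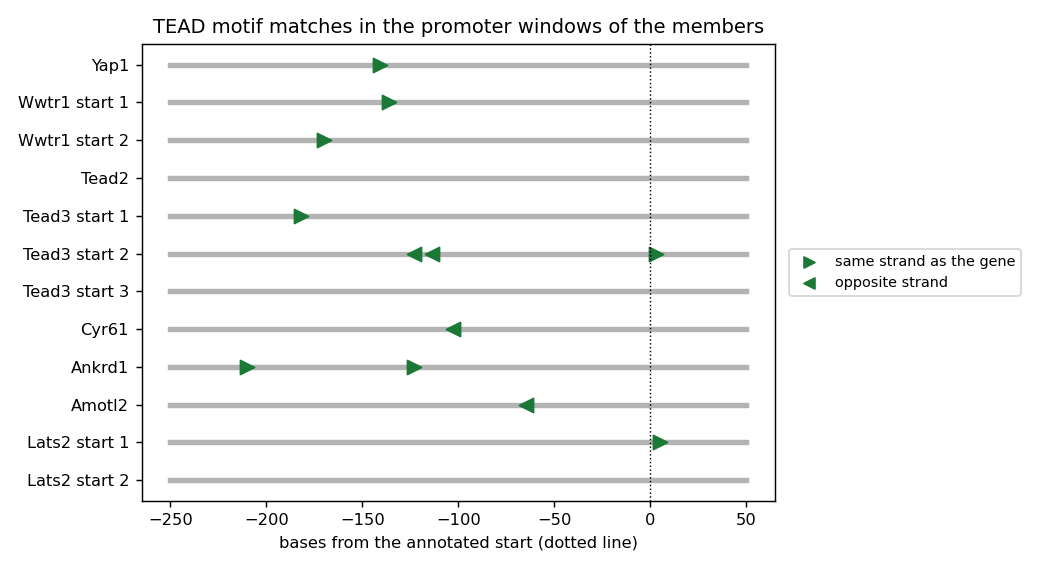
Positions of TEAD motif matches in the 12 promoter windows of 8 members, in bases from the annotated start, with each arrow centred on the first base of a match and pointing along the strand that reads GGAATG. Matches are seen in 7 of the 8 members, and the Tead2 window has none.

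Among the co-activators, Wwtr1 was higher on the Nrdc-cKO array and Yap1 was within 2-fold. Wwtr1, which encodes TAZ, had a processed intensity of 2505 on the Nrdc-cKO array and 293 on the WT array. Its levels of 3.46 on the Nrdc-cKO array and 2.05 on the WT array gave a log2 difference of 1.41, or 2.66-fold higher. Yap1 had an intensity of 2536 on the Nrdc-cKO array and 925 on the WT array, a 2.74-fold ratio that fell short of the ratio of the arrays' 75th percentiles. Its levels of 3.48 on the Nrdc-cKO array and 3.71 on the WT array gave a log2 difference of -0.23, close to the median of all genes. Yap1 was above 0 in 6 of 9 scalings, with values from -0.23 to 0.29 apart from spike-in scaling (1.66), so no direction can be given for it. Wwtr1 was at least 2-fold higher in 9 of 9.

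Among the TEAD factors, which bring YAP and TAZ to DNA, Tead2 was lower and Tead1 and Tead3 were within 2-fold. Of the probes for Tead2, the probe for NM_011565 had an intensity of 207 on the Nrdc-cKO array and 691 on the WT array. The probe for the transcript NM_001285498 had 1057 on the Nrdc-cKO array and 2865 on the WT array. Tead2 was thus the only member dimmer on the Nrdc-cKO array before any scaling, by both of its probes. After scaling the log2 differences were -3.42 and -3.12, and their mean of -3.27 corresponds to 9.67-fold lower. This is close in size to the difference of Nrdc itself, and only 75 of the 13001 genes had a lower value than Tead2. It was at least 2-fold lower in 9 of 9 scalings, with -1.39 under spike-in scaling as the value nearest to 0.

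Tead1 had levels of 1.24 and -0.69 on the Nrdc-cKO array and 1.17 and -0.74 on the WT array by the 2 probes measured on both, with log2 differences of 0.08 and 0.05. Its remaining probe was well above background on the Nrdc-cKO array only, where it had an intensity of 24.0, against 11.9 on the WT array. Tead3 had intensities of 557 on the Nrdc-cKO array and 129 on the WT array and a log2 difference of 0.43. Tead1 and Tead3 were above 0 in 9 of 9 scalings and reached 2-fold only with spike-in scaling. Tead4, the remaining factor of the family and not a member, had 1 probe of 2 well above background, on the Nrdc-cKO array only, with an intensity of 32.8 there and 2.53 on the WT array, which does not allow a fold after scaling.

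Among the target genes, the matricellular proteins Cyr61 and Ctgf and the kinase gene Lats2 were higher. Cyr61, which binds integrins on the cell surface, had an intensity of 653 on the Nrdc-cKO array and 60.05 on the WT array. Its log2 difference of 1.76 (3.39-fold higher) was the largest among members in that direction, although Wwtr1 exceeded it in both normexp settings (1.67 and 1.47, against 1.34 and 1.26 for Cyr61), and 679 of the 13001 genes had a larger one. Ctgf, a secreted protein known for its part in fibrosis, had an intensity of 799 on the Nrdc-cKO array and 108 on the WT array, with a log2 difference of 1.205, or 2.31-fold higher. Both were at least 2-fold higher in 9 of 9 scalings.

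Lats2 encodes a kinase that restrains YAP and TAZ and is itself one of their targets, so that it acts in negative feedback. The Lats2 value rests on 1 of 3 probes, which had an intensity of 364 on the Nrdc-cKO array and 48.0 on the WT array and a log2 difference of 1.24, or 2.36-fold higher. A second probe of the same accession was well above background on the Nrdc-cKO array only, with 32.4 there and 9.88 on the WT array, and the probe for NM_153382 was so on neither. No fold can be given for these probes. The measured probe stood at 0.94 and 0.93 after normexp background correction with the 75th percentile and with quantile scaling, below 2-fold. Without a filter on dim probes, the mean over the 3 probes was 0.31.

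Amotl2, an angiomotin family protein that binds YAP at cell junctions, did not follow the other targets. It had an intensity of 346 on the Nrdc-cKO array and 162 on the WT array, and levels of 0.60 on the Nrdc-cKO array and 1.19 on the WT array. The log2 difference of -0.59 was within 2-fold and was below 0 in all scalings but spike-in scaling, where it was 1.30. Ankrd1, a nuclear ankyrin repeat protein of muscle that is widely used as a readout of YAP, was not well above background on either array, with 11.4 on the Nrdc-cKO array and 2.38 on the WT array, and no fold is given.

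**Figure D3:**
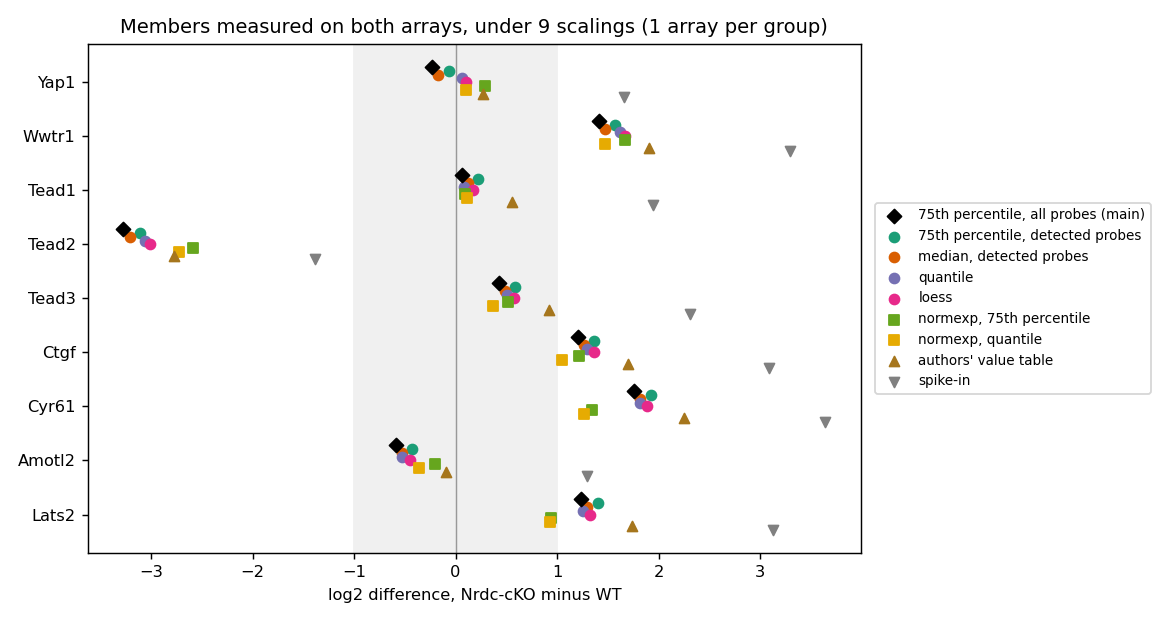
Log2 difference, Nrdc-cKO minus WT, of the 9 members measured on both arrays under 9 ways of scaling the arrays, with the band within 2-fold shaded. Tead2 lies below the band in all 9, Wwtr1, Ctgf and Cyr61 above it in all 9, Lats2 above it in 7, and spike-in scaling moves every member up by 1.88.

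Upstream of YAP and TAZ, 24 of the 26 measured pathway genes (92.3%) were within 2-fold, against 69.9% of all genes. The list held 28 kinases, scaffolds and regulators, of which 2 passed 2-fold upward (12.8% of all genes did) and 0 downward (17.3% of all genes), and the median was 0.12. The higher ones were Wtip (1.79) and Ajuba (1.32), both LIM domain proteins that are known to bind and restrain the LATS kinases. Map4k1 (0.986) and Frmd6 (0.977) lay just below the 2-fold threshold, so the count within 2-fold depends on small shifts. The core kinases, given for their role and with their values known, were at -0.19 for Stk3, 0.33 for Stk4 and -0.66 for Lats1, and the scaffold gene Sav1 was at 0.21. Nf2, the gene of the membrane-linked tumour suppressor merlin, was at -0.89, with its measured probes at -1.20 and -0.57. Spike-in scaling adds 1.88 to each value, which puts 25 of the 26 past 2-fold upward (79.5% of all genes), with a median of 1.9996.

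Of 17 genes whose proteins bind or act on TEAD factors, YAP or TAZ, 13 were measured on both arrays. Tead4, TEAD cofactor genes, angiomotin genes and Ptpn14 are in this list. It also holds the Ywha genes, Csnk1d, Csnk1e and Btrc, which make up most of the measured genes and were all within 2-fold. Of these, 3 passed 2-fold upward (12.8% of all genes did) and 0 downward (17.3% of all genes), and the median was 0.45. The higher ones were the angiomotin gene Amot (1.96, by 1 of its 3 probes), the TEAD cofactor gene Vgll3 (1.72) and the phosphatase gene Ptpn14 (1.202, by 1 of its 3 probes). Amot and Amotl2, of the same family, thus had values on opposite sides of 0 in this scaling. Vgll4, given for its role, whose protein competes with YAP for TEAD factors, was at 0.48.

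A signature of 22 YAP and TAZ target genes known from human cancers holds 5 of the members and 17 other genes. Of these 17, 15 were measured on both arrays, and the median was 1.34. Of the 15, 9 passed 2-fold upward (12.8% of all genes did) and 1 downward (17.3% of all genes). Ptpn14, given above, is also in this list. The highest were the secreted protein Ccdc80 (2.06), tissue factor F3 (1.97), the guanine nucleotide exchange factor Arhgef17 (1.94) and the RNA-binding protein Rbms3 (1.81, with its 2 measured probes at 1.65 and 1.98). The lower one was Dock5, an exchange factor for Rac, at -1.74, with its probes at -1.75 and -1.73. Its intensities were nearly equal before scaling, with 242 on the Nrdc-cKO array and 249.4 on the WT array by the brighter probe, and with spike-in scaling Dock5 would stand above 0. Over all 19 measured signature genes the median was 1.24, against -0.18 for all genes.

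Other genes of the same families and of neighbouring programmes were set beside the targets. In the CCN family, Nov was at 0.72, and Wisp1 and Wisp2 were well above background on the Nrdc-cKO array only, at least 1.79-fold and at least 1.38-fold higher. In the serum response factor programme, which shares targets with YAP and TAZ, 6 of 12 measured genes passed 2-fold upward and 0 downward. The median was 0.91, and of all genes 12.8% passed 2-fold upward and 17.3% downward. The higher ones were led by Filip1l (2.26), the myosin light chain gene Myl9 (1.98) and smooth muscle actin, Acta2 (1.91, measured probes at 1.20 and 2.61). Of 16 measured immediate early genes, 11 passed 2-fold upward and 0 downward, against 12.8% and 17.3% of all genes. Cyr61 and Ctgf also belong to this class. The median of the 16 was 1.24, and the highest were Egr2 (2.51), Atf3 (2.35), Fosl2 (2.06), Fos (2.05) and Nr4a1 (1.84).

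Markers of several cell types moved with these genes. Since this is whole tissue, a difference in the number of cells of a type and a difference in RNA per cell cannot be told apart. For comparison with the counts below, 12.8% of all genes passed 2-fold upward and 17.3% downward. All 13 measured stellate and fibroblast markers were at least 2-fold higher, from 1.02 to 2.33 with a median of 1.78. The values of Wwtr1, Ctgf, Cyr61 and Lats2 lie within that range. They also lie within the ranges of the smooth muscle (0.44 to 2.13), endothelial (-0.24 to 1.97), ductal (-2.25 to 2.88) and macrophage (0.03 to 2.98) markers. The same holds for the islet (-0.55 to 4.59) and adipocyte (-1.87 to 6.40) markers. It holds as well for the serum response factor (-0.52 to 2.26) and immediate early (-0.98 to 2.51) genes. Smooth muscle markers had a median of 1.54, with 3 of 5 measured past 2-fold, and mesothelial markers a median of 0.997, with 3 of 6. The lists overlap. Acta2, Tagln and Cnn1 are in both the smooth muscle and serum response factor lists, Des in the smooth muscle and stellate lists, and Krt19 in the mesothelial and ductal lists. Endothelial markers had a median of 0.77, with 4 of 12 past 2-fold upward, and macrophage markers 2.31, with 8 of 10. Of 14 ductal markers, 4 passed 2-fold upward and 3 downward, and their median was 0.51. Of 10 adipocyte markers, 5 were measured on both arrays (median 1.05) and 5 were well above background only on the Nrdc-cKO array, all 5 with a bound past 2-fold, and the median with these at their bound was 5.58. Of 10 T and B cell markers, 4 were measured on both (median -0.49) and 5 only there, 4 of them with a bound past 2-fold, and the median with bounds was 0.39. The 3 measured erythrocyte markers had a median of 0.80. The part of these cell types in the values of the members was not tested.

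In the other direction, 12 of 12 acinar markers were at least 2-fold lower, against 17.3% of all genes. They ran from -4.25 to -1.30 with a median of -1.98, a range that holds Tead2. Under spike-in scaling the acinar median was -0.09 and Tead2 was -1.39. Islet markers had a median of 3.04, and 9 of the 11 measured passed 2-fold upward and 0 downward (12.8% and 17.3% of all genes).

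**Figure D4:**
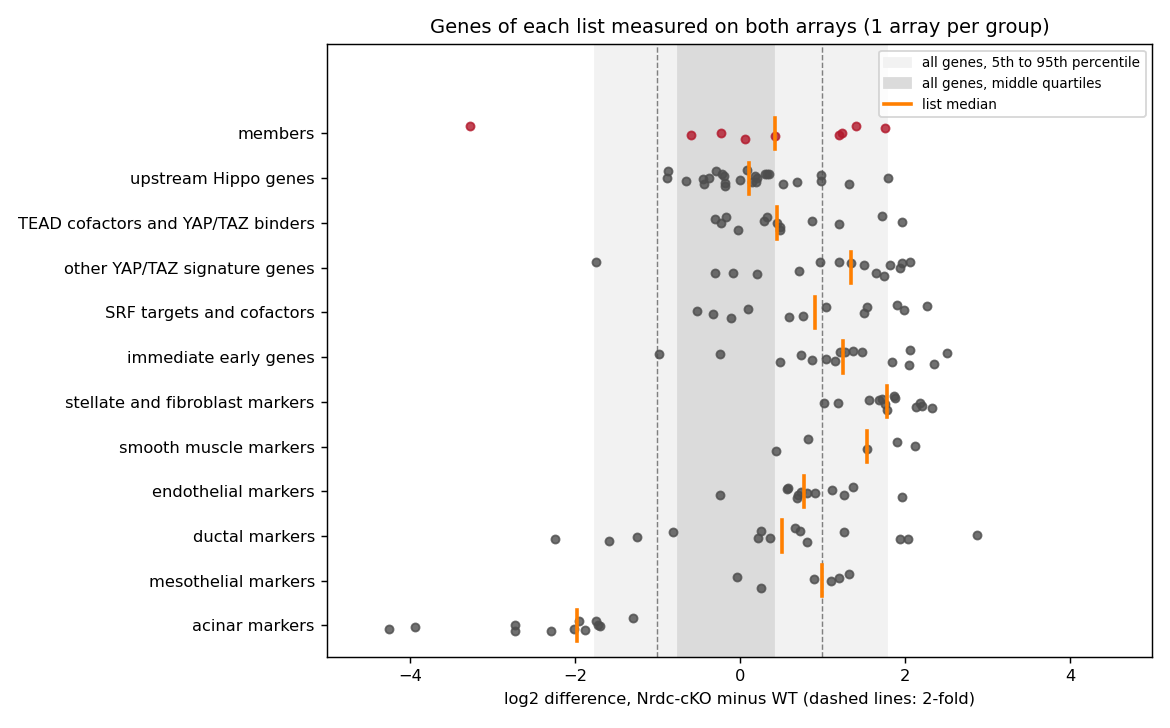
Log2 difference, Nrdc-cKO minus WT, of each gene measured on both arrays, by list, with orange bars at list medians and grey bands for all genes. The upstream Hippo genes centre near 0 at 0.12, the other signature genes at 1.34 and the stellate and fibroblast markers at 1.78, while Tead2 is the member at the far left.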

How the data were processed

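The authors deposited, per the file headers, Agilent Feature Extraction output (version 12.0.3.1 in the headers, 11.5.1.1 in the submitters' processing notes) with a background-subtracted intensity on a linear scale for each spot and no scaling between arrays. Slide and scan were the same for both arrays. Their deposited value table equals that intensity times 1 constant per array (1.92 for Nrdc-cKO and 4.37 for WT), on a linear scale, and the choice of the constants is not stated in any source used here. The deposited flags for signal well above background, outliers and control spots served as filters.

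Spots flagged as outliers were left out, the log2 signal was averaged over spots of a probe and the 75th percentile of all non-control probes was subtracted. A probe counted as measured when a share of 0.5 or more of its spots stood well above background. A gene's value is the mean log2 difference over probes measured on both arrays. A gene measured on 1 array was compared with its own signal on the other array or, if higher, with the lowest detected signal there, and is written as at least N-fold. Accessions were matched to RefSeq names of GRCm38.p6 (32993 probes). The SD of the Nrdc-cKO minus WT difference between repeat spots had a median of 0.032 (log2), which leaves out animal, dissection and labelling. It covers 291 probes with repeat spots that were measured on both arrays, and no member probe is among them. Intensities of different probes are not comparable. Alternatives used quantile, loess (span 0.3), spike-in and normexp scaling (limma 3.58.1, offset 50, on the median signal) and other probe rules. The 75th percentile scaling and the averaging into gene values were tested on simulated arrays built from the WT spots, with every probe set as measured. In them a common shift and small noise were added, and a small set of genes was changed by set folds in either direction. A far larger share of genes passed 2-fold in the real arrays. The simulation therefore checks the calculation and cannot show which scaling is right for these data. The background filter, the bounds, the other scalings and the motif search were not tested in this way.

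The members and lists were chosen with earlier results of these data known. All members were named, Nrdc and Tead4, and of other lists the genes past 2-fold, at most the 5 highest and 5 lowest. Outside this rule, the core kinase genes, Sav1, Nf2, Vgll4 and Nov were named for their role after their values were seen. Map4k1 and Frmd6 were named for lying near the threshold, and Tagln, Cnn1, Des and Krt19 as genes shared between lists. The Ywha genes, Csnk1d, Csnk1e and Btrc were named to describe the list that holds them. Protein sequences were not used here.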

Additional observations from a re-analysis of the deposited data

How the results depend on the processing

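No paired analysis was possible because both groups consist of 1 array, and no replicate could be left out. Tead2 stayed at least 2-fold lower, and Wwtr1, Ctgf and Cyr61 at least 2-fold higher, in every scaling run and in the other probe rules that could measure them. Spike-in scaling raises all values by 1.88, by its construction, and gave -1.33 for Nrdc, 2.31 for the member median, 3.12 for the signature, 1.9996 for the upstream genes, 8 members higher, and 10331 genes higher and 118 lower, against 1666 and 2252. The value table gave -2.71 for Nrdc, 0.92 for the members, 1.73 for the signature, 0.61 for the upstream genes, and 2888 and 1074 genes. Normexp with the 75th percentile or quantile scaling gave -2.23 or -2.20 for Nrdc, 0.94 or 0.93 for the signature, and 1146 or 847 genes lower, and loess gave 1386 lower. Without a filter on dim probes 3108 genes were higher and 8013 lower, 3 members were higher, and Lats2, averaged over all its probes, stood at 0.31. With bright probes only, which drops Cyr61 and Lats2, the member median was 0.075 and the counts past 2-fold were 2 members higher and 1 lower, with 556 genes higher and 1105 lower. At 1.5-fold 2 members were lower, with 2617 genes higher and 4065 lower, and at 4-fold 0 members were higher, with 485 and 390 genes. Where no cause is given, the cause was not tested. Placing genes measured on 1 array at their bound, added after the data were seen, gave 1.22 for the signature, 5.58 against 1.05 for the adipocyte markers and 0.39 against -0.49 for the T and B cell markers. The 2 upstream genes measured on 1 array have no usable bound. Signal over background limits Ankrd1, Tead4 and 2 of the 3 Lats2 probes.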

Other observations

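Genes that neighbour Tead2 on chromosome 7, in RefSeq gene order of GRCm38.p6, were looked at after its value had been seen. Of the 6 protein-coding genes on either side, Pih1d1 was at -2.34 (probes at -3.39 and -1.29), Gfy at -1.36, Dkkl1, the nearest on one side, at -1.60 and Trpm4 at -1.52, while Cd37, a leukocyte tetraspanin and the nearest on the other side, was at 1.72. Pth2 (0.66), Hrc (-0.28) and Ppfia3 (0.19) were within 2-fold, and the rest were not measured on both arrays. With spike-in scaling, which adds 1.88, Gfy, Dkkl1 and Trpm4 would stand above 0 and Pih1d1 below it.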
